A study of Mus musculus with 16 samples.

Results

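Corticosteroid hormones act on adipose tissue through a small set of proteins, and 8 of the genes that encode them are described here. Nr3c1 and Nr3c2 encode the receptors, Hsd11b1 and H6pd the enzymes that regenerate active hormone, Fkbp4, Hsp90ab1 and Ptges3 chaperones of the receptor, and Ncor1 a co-repressor. They were taken by name, not by their values, and every probe whose RefSeq accession maps to one of them was used, which gave 20 of the 41174 probes of the array. Probes had to stand well above background on every array of 1 group or more. This kept 18 of the 20 probes, with all 8 genes among the 15469 genes tested.

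The series compared male wild-type mice (labelled CTL) with male mice lacking the glucocorticoid receptor in adipose tissue (labelled AdipoKO), in white (WAT) and brown (BAT) adipose tissue. Control and knockout of either tissue make 4 groups with 4 arrays each, which the design text presents as biological replicates. The Cre driver, the deleted exon, the ages and the fat depots are not given in the sources used here, so whether a probe of Nr3c1 lies in the deleted part is not known. Total RNA of whole tissue was hybridised to 1-colour Agilent arrays.

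In the cytoplasm the unliganded glucocorticoid receptor is held in a hormone-binding form by HSP90 with its co-chaperones p23 and the immunophilin FKBP52. Hormone sends it to the nucleus, where it recruits co-activators at some genes and co-repressors at others. The mineralocorticoid receptor binds the same glucocorticoids with high affinity and is also made by adipocytes. In fat, 11β-hydroxysteroid dehydrogenase type 1 reduces the inactive 11-keto steroids, cortisone in humans and 11-dehydrocorticosterone in mice, back to active hormone. It works in the lumen of the endoplasmic reticulum on NADPH that hexose-6-phosphate dehydrogenase makes there from glucose 6-phosphate.

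The promoters of 3 members whose arrays separated knockout from control, or which supply the reactivating enzyme, are shown from RefSeq, build GRCm38.p6, as the 250 bases before the gene's start, 5′ to 3′ on the gene's strand. Hsd11b1 lies on the minus strand at chr1:193242361-193242610, H6pd on the minus strand at chr4:150003237-150003486 and Fkbp4 on the minus strand at chr6:128438657-128438906. Capitals mark matches, on either strand, to the motifs searched.

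Hsd11b1: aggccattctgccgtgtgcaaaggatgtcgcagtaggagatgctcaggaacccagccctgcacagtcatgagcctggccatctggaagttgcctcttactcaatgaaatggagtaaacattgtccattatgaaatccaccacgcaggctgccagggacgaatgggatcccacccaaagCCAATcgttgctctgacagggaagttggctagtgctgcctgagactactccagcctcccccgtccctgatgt
H6pd: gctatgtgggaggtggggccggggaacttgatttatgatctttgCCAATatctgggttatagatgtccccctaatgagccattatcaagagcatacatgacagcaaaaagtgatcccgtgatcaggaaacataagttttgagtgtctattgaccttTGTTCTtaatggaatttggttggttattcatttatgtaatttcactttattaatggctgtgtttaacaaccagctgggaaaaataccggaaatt
Fkbp4: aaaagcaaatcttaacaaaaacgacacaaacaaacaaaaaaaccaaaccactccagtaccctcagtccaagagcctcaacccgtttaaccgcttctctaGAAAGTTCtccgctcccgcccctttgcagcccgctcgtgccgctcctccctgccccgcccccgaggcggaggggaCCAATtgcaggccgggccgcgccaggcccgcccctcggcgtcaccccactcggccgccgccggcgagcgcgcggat

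The motifs were the full glucocorticoid response element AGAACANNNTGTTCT, its half-site TGTTCT, which is part of the full element, the C/EBP core TTGCNNAA, the heat shock element core GAANNTTC and the CAAT box CCAAT. The full element stood in none of the 7 windows of the 6 members that have a promoter in the table, and in 3 of all 32851 promoters of this length (0.00913%). The Hsd11b1 window held a CAAT box starting at -72, a match found in 33.8% of all promoters. The H6pd window held a half-site at -94 (16.1% of all promoters hold one) and a CAAT box at -206. The Fkbp4 window held the heat shock core at -151 (6.69% of all promoters) and a CAAT box at -76. Of the windows not shown, that of Nr3c2 held the C/EBP core (9.56% of all promoters), the heat shock core and 3 CAAT boxes, the first of the 2 Ncor1 windows held 2 half-sites and the C/EBP core, and that of Ptges3 held no match. Matches describe letters only, and a window without one says nothing of the factor.

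Levels are log2 intensities relative to the 75th percentile of the array, so that 0 is the level of that percentile and a step of 1 is a doubling. Before averaging, the arrays of each group were compared. Of 24 such pairs of arrays, 9 lay closer together than the error the scanner assigns to a spot, and these arrays were averaged and counted once. This left 9 distinct samples: white control arrays 1 and 4, white control arrays 2 and 3, white knockout array 1, white knockout arrays 2, 3 and 4, brown control array 1, brown control arrays 2 and 3, brown control array 4, brown knockout array 1, and brown knockout arrays 2, 3 and 4. Groups therefore hold 2 or 3 samples, and p-values measure the spread between these samples. Brown control arrays 2 and 3 stand apart. Ucp1, the uncoupling protein that defines brown adipocytes, was at -0.75 there against 6.61 and 8.13 in the other brown control samples. Cidea (2.83 against 7.59 and 8.71), Elovl3 (-4.66 against 1.53 and 2.52) and Otop1 (-3.54 against -0.14 and 1.58) were low there too. Dio2 (-0.74) and Prdm16 (0.24) were lower by less. Cox7a1 (8.02 against 7.67 and 8.06) and Cox8b (7.22 against 7.28 and 7.97) were near the other brown controls. The median of the brown adipocyte list lay -1.92 from the brown control mean. All brown samples carried skeletal muscle transcripts, with a summed level of the 10 muscle markers of 1939 to 4152 (in units of the 75th percentile) against 3.84 to 11.6 in white fat. In whole tissue, fewer cells of a type and less RNA per cell cannot be told apart.

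The plot of levels by group shows the 8 genes at their brightest kept probe. In white fat, the mean of 5 members was lower in knockouts and that of 3 was higher, and in brown fat all 8 were lower, beside 52.3% and 59.9% of all genes tested. The arrays of knockout and control did not overlap, with knockout lower, for Nr3c1, Hsd11b1 and Fkbp4 in each tissue. Of all genes, 18.3% did so in white fat, 16.5% in brown fat and 6.9% in both. In white fat Ptges3 and Ncor1 were higher without overlap, as were 11.1% of all genes, and in brown fat no member was (11.4% of all genes). The median difference of the 8 members was -0.29 in white fat and -0.36 in brown fat, beside -0.032 and -0.12 over all genes.

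**Figure D1:**
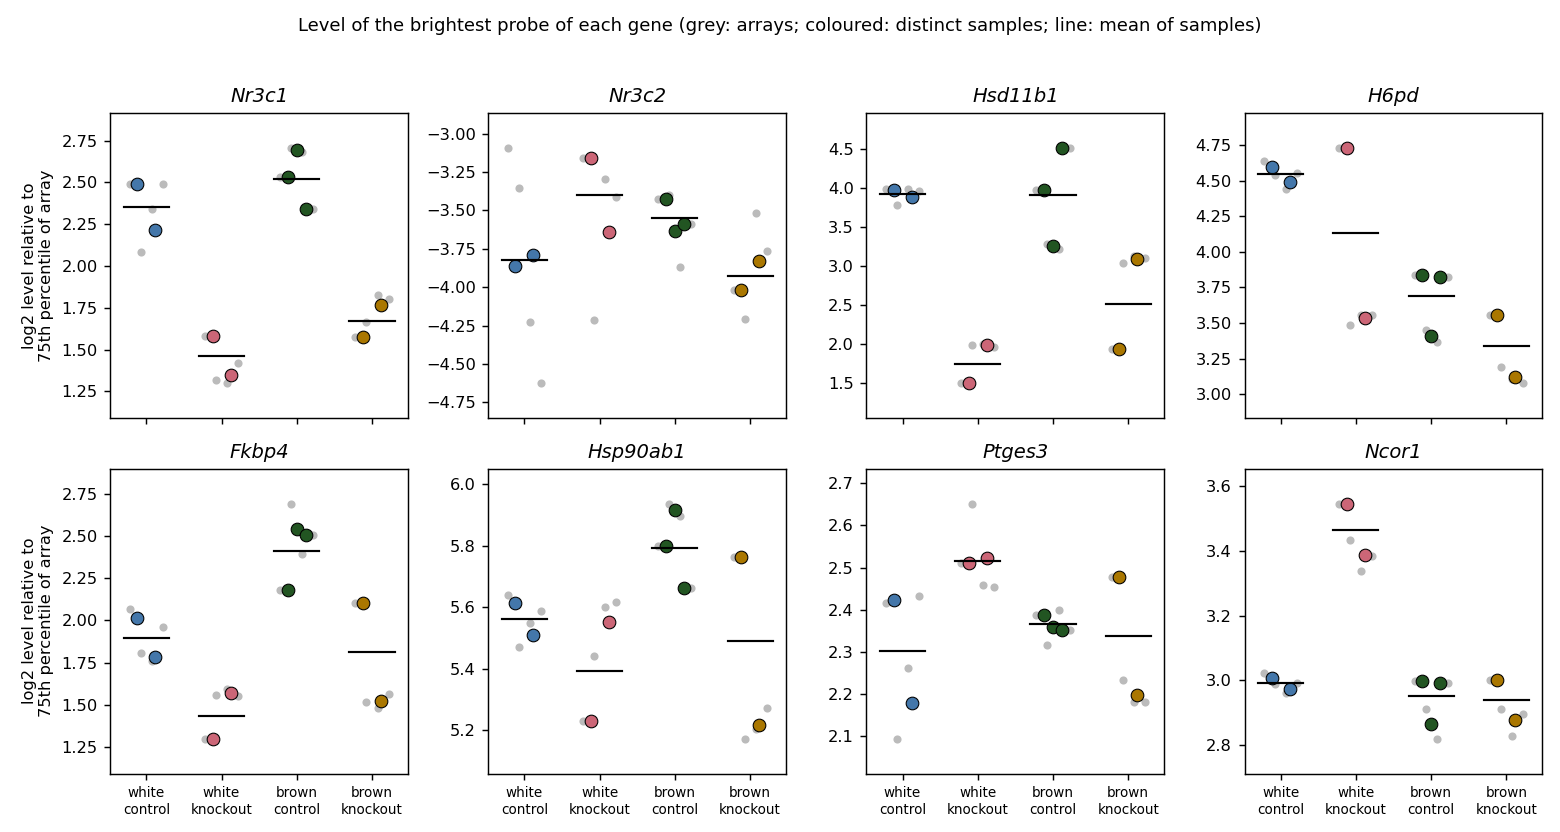
Level of each member gene (log2 intensity relative to the 75th percentile of the array, brightest kept probe) in the 4 groups. Grey points are single arrays, coloured points distinct samples and lines the group means. Nr3c1 and Hsd11b1 lie lower in every knockout array than in any control array of the same tissue, while Nr3c2 arrays overlap.

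No member passed the test. In limma over all genes with Benjamini-Hochberg adjustment, 0 of 8 members had an adjusted p under 0.05 in either tissue, and 0% of the 15469 genes did. The lowest adjusted p of any gene was 0.137 in white fat and 0.402 in brown fat. At an unadjusted limma p under 0.05 there were 3 members in white fat (Nr3c1, Hsd11b1 and Ncor1) beside 9.96% of all genes, and 3 in brown fat (Nr3c1, Hsd11b1 and Fkbp4) beside 7.04%. Where all 16 arrays were instead counted as separate samples, as the design text presents them, 5 members passed in white fat and 4 in brown fat, beside 6929 and 4736 of all genes. The differences below therefore carry intervals rather than calls.

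**Figure D2:**
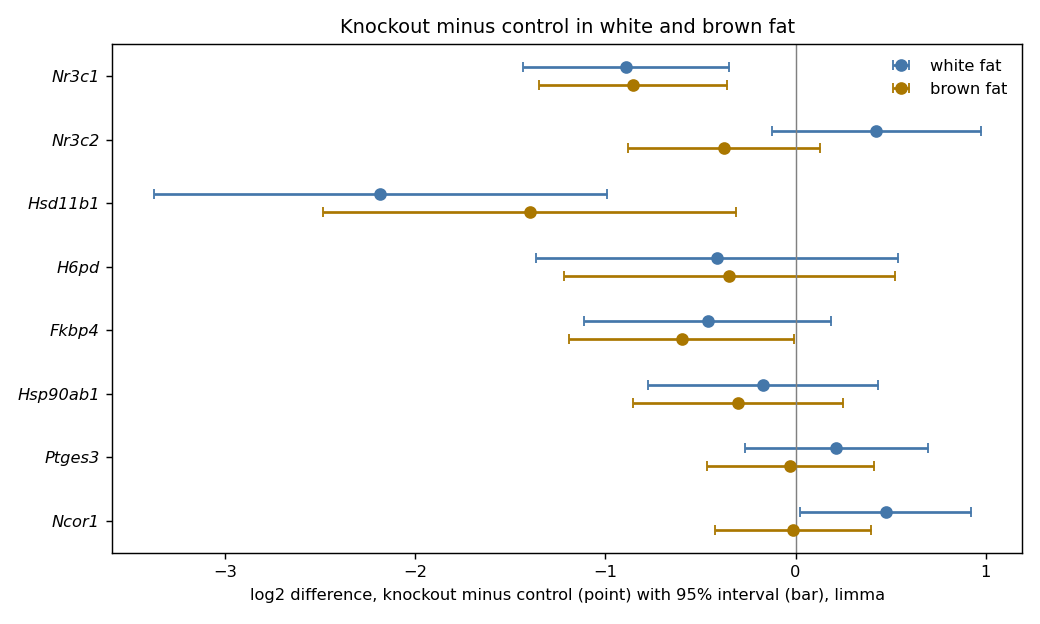
Knockout minus control difference of each member gene (log2) with its 95% interval from limma, in white and in brown fat. The intervals of Nr3c1 and Hsd11b1 lie below 0 in both tissues, that of Ncor1 above 0 in white fat and that of Fkbp4 just below 0 in brown fat.

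Nr3c1, the glucocorticoid receptor and the gene targeted by the knockout, was lower in the knockout samples but far from absent. Its brightest probe (A_52_P138090) gave 2.49 and 2.21 in the white control samples and 1.58 and 1.34 in the white knockout samples. The brown samples gave 2.53, 2.69 and 2.34 in controls and 1.57 and 1.76 in knockouts. The groups of a tissue did not overlap, in samples or in arrays. The level was 1.85-fold lower in white fat, a log2 difference of -0.89 ± 0.23 (SE; 95% interval -1.43 to -0.35), with a limma unadjusted p of 0.00584 and an adjusted p of 0.415. In brown fat it was 1.81-fold lower, at -0.85 ± 0.21 (-1.35 to -0.36), with a limma unadjusted p of 0.00457 and an adjusted p of 0.619. Within the slide that held both groups of a tissue, with 2 arrays of each, the difference was -0.97 in white and -0.89 in brown fat. In order of level stood brown control (2.52 ± 0.17, SD of 3 samples), white control (2.35 ± 0.20, 2 samples), brown knockout (1.67 ± 0.14, 2 samples) and white knockout (1.46 ± 0.17, 2 samples). Neighbours of the same genotype overlapped, and the gap lay between white control and brown knockout. The difference sat deeper than most but not at the edge of the distribution, with 9.50% of genes lower still in white fat and 5.81% in brown fat.

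All 4 probes of Nr3c1 were kept and had lower means in the knockouts of both tissues. In white fat the differences were -0.89, -0.99 (A_51_P355693), -1.10 (A_52_P63106) and -0.23 (A_52_P254174), and in brown fat -0.85, -0.35, -0.81 and -0.64 in the same order. In each tissue 3 of the 4 had a limma unadjusted p under 0.05, beside 11.2% of all kept probes in white fat and 7.85% in brown fat, and none an adjusted p under 0.05 (0% of kept probes in white and 0.00341% in brown fat). A different probe was the exception in each tissue. A_52_P254174 gave -2.34 and -2.58 in white controls and -2.93 and -2.45 in white knockouts, which overlap, whereas in brown fat it gave -2.44, -2.25 and -2.57 in controls and -3.30 and -2.82 in knockouts. A_51_P355693 gave -2.88 and -3.30 in white controls against -3.84 and -4.31 in knockouts, but -3.26, -2.89 and -3.20 in brown controls against -3.45 and -3.47. Both are dim probes, whose level lay below the 75th percentile of the array throughout, but so did that of A_52_P63106.

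Nr3c2, the mineralocorticoid receptor, was measured by a single dim probe. Of its 3 probes only A_52_P378137 was kept, which was well above background on all 16 arrays. It gave -3.86 and -3.79 in white controls, -3.16 and -3.64 in white knockouts, -3.42, -3.64 and -3.59 in brown controls and -4.02 and -3.83 in brown knockouts. The sample means of a tissue did not overlap, higher with knockout in white fat and lower with knockout in brown fat, but the single arrays did. White control arrays 1 and 4, which count as 1 sample, stood at -3.09 and -4.62, a gap wider than any difference between groups. Arrays 1 and 2 (-3.35) were on slide 1, and arrays 3 (-4.22) and 4 on slide 2, where white knockout arrays stood at -3.16 and -4.21. Within the slide that held both groups of a tissue, the difference was 0.74 in white and -0.38 in brown fat. The part of the slide in this gap was not tested. The difference was 0.42 ± 0.23 (SE; -0.13 to 0.98) in white fat and -0.38 ± 0.21 (-0.88 to 0.13) in brown fat, with limma adjusted p of 0.542 and 0.619. Of the probes not kept, A_51_P377914 was well above background on 8 of 16 arrays, 2 in each group, and A_52_P264543 on 0 of 16.

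Hsd11b1, the reductase that reactivates 11-keto steroids, had the widest difference of the 8 genes in both tissues. Its only probe (A_51_P127297) gave 3.97 and 3.88 in the white control samples and 1.50 and 1.99 in the white knockout samples. Brown samples stood at 3.98, 3.25 and 4.51 in controls and 1.94 and 3.09 in knockouts. Knockout and control did not overlap in either tissue, but in brown fat the nearest samples, control arrays 2 and 3 at 3.25 and knockout arrays 2, 3 and 4 at 3.09, were close. The level was 4.54-fold lower in white knockouts, a log2 difference of -2.18 ± 0.50 (SE; 95% interval -3.37 to -0.99) with a limma unadjusted p of 0.00336 and an adjusted p of 0.386. It was 2.63-fold lower in brown knockouts, at -1.40 ± 0.46 (-2.48 to -0.31), with a limma unadjusted p of 0.0187 and an adjusted p of 0.619. Only 0.388% of all genes had a lower difference in white fat and 0.769% in brown fat. Within a slide the differences were -2.23 and -1.38.

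In brown fat the size rested on which sample was counted. Without brown control arrays 2 and 3, the sample with little Ucp1, the brown difference of Hsd11b1 was -1.73 (limma unadjusted p = 0.0076, adjusted p = 0.837). Without brown knockout array 1 it was -0.82, and without brown knockout arrays 2, 3 and 4 it was -1.97. In white fat it stayed between -2.42 and -1.94 when either knockout sample was left out. By group, white control (3.93 ± 0.064, SD of 2 samples) and brown control (3.91 ± 0.63, 3 samples) had like means. Their difference turned from -0.015 to 0.31 without brown control arrays 2 and 3. Brown knockout (2.52 ± 0.81) and white knockout (1.75 ± 0.34, 2 samples each) overlapped each other.

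H6pd, which supplies the NADPH, differed less, and chiefly in 1 white sample. Its brighter probe (A_51_P321643) gave 4.60 and 4.49 in white controls, and 4.73 in white knockout array 1 but 3.53 in white knockout arrays 2, 3 and 4. Brown samples gave 3.83, 3.41 and 3.82 in controls and 3.56 and 3.13 in knockouts. Knockout and control overlapped in both tissues. Its white difference was -0.41 ± 0.40 (SE; -1.37 to 0.54) and its brown one -0.35 ± 0.37 (-1.22 to 0.52), with limma adjusted p of 0.684 and 0.709. The white value was -1.01 without array 1 and 0.18, with the sign turned, without arrays 2, 3 and 4. The second probe (A_52_P83549) also split the white knockouts, at 0.72 and -0.93 against 1.32 and 0.91 in controls, a difference of -1.22 ± 0.55 (SE). Here array 1 too lay below the white control arrays (0.86 to 1.33), so the white arrays of this probe did not overlap (limma adjusted p = 0.457).

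Fkbp4, which encodes FKBP52, the immunophilin that links the receptor complex to its transport, was lower in the knockout arrays of both tissues. A_52_P585104 gave 2.01 and 1.78 in white controls and 1.30 and 1.57 in white knockouts. It gave 2.18, 2.54 and 2.51 in brown controls and 2.10 and 1.52 in brown knockouts. Arrays did not overlap, but in brown fat knockout array 1 (2.10) and control array 1 (2.18) nearly met. Its difference was -0.46 ± 0.27 (SE; -1.11 to 0.19) in white fat and -0.60 ± 0.25 (-1.19 to -0.0057) in brown fat, with limma unadjusted p of 0.136 and 0.0484 and adjusted p of 0.561 and 0.619. The second probe gave -0.29 and -0.64. Without brown knockout arrays 2, 3 and 4 the brown difference was -0.31, and without brown knockout array 1 it was -0.89.

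Hsp90ab1, the constitutive HSP90 beta, and Ptges3, which encodes p23, had smaller differences at their brightest probes. Hsp90ab1 (A_51_P485043) gave 5.61 and 5.51 in white controls, 5.23 and 5.55 in white knockouts, 5.80, 5.92 and 5.66 in brown controls and 5.76 and 5.22 in brown knockouts. Its differences were -0.17 ± 0.26 (SE; -0.78 to 0.43) and -0.30 ± 0.23 (-0.86 to 0.25), and the arrays overlapped in both tissues. Its second probe (A_52_P257204) gave -0.46 ± 0.26 (SE) in white fat, where its arrays did not overlap, and -0.40 ± 0.23 in brown fat, where they did, with limma adjusted p of 0.506 and 0.597. Ptges3 (A_51_P474367) gave 2.42 and 2.18 in white controls and 2.51 and 2.52 in white knockouts, at 0.22 ± 0.20 (SE; -0.27 to 0.70). In brown fat it gave 2.39, 2.36 and 2.35 in controls and 2.48 and 2.20 in knockouts, at -0.028 ± 0.19 (-0.47 to 0.41). The white arrays of Ptges3 did not overlap, yet its difference was about as large as its standard error.

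Ncor1, a co-repressor that nuclear receptors recruit with histone deacetylases, had a higher mean in white knockouts. Its brightest probe (A_52_P561934) gave 3.01 and 2.97 in white controls and 3.55 and 3.39 in white knockouts, with no overlap. The brown samples gave 2.999, 2.87 and 2.99 in controls and 2.9998 and 2.88 in knockouts, which coincide. The difference was 0.47 ± 0.19 (SE; 0.026 to 0.92) in white fat, with a limma unadjusted p of 0.0409 and an adjusted p of 0.492, and -0.014 ± 0.17 (-0.42 to 0.40) in brown fat. White knockout was the group that stood apart, at 3.47 ± 0.11 (SD of 2 samples), with the other groups between 2.94 and 2.99.

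Several probes of a gene gave the same sign for most members. In white fat the kept probes agreed in sign for Nr3c1, H6pd, Fkbp4, Hsp90ab1 and Ptges3, and in brown fat for these and for Ncor1. Over all 5525 genes with at least 2 kept probes, signs agreed for 71.2% in white and 78.7% in brown fat. Ncor1 in white fat was the exception: its probes gave 0.47, 0.53, 0.20 and -0.60, a range of 1.13 beside a median of 0.344 and a 90th percentile of 0.891 over all such genes. The deviating probe, A_52_P244895, is annotated to NM_177229, while the other 3 carry NM_011308. It gave -0.84 and -1.21 in white controls, -1.09 in white knockout array 1 and -2.15 in white knockout arrays 2, 3 and 4, so that its lower mean came from 1 sample. The probes of Nr3c1 spanned 0.868 in white fat and 0.505 in brown fat, where the median over all genes was 0.177 and the 90th percentile 0.620. Nr3c1 and Ncor1 have 4 kept probes each, and a range tends to widen with the number of probes. The values over all genes with at least 2 kept probes are therefore not a matched reference for them. Probes of a gene share their samples and are not replicates.

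**Figure D3:**
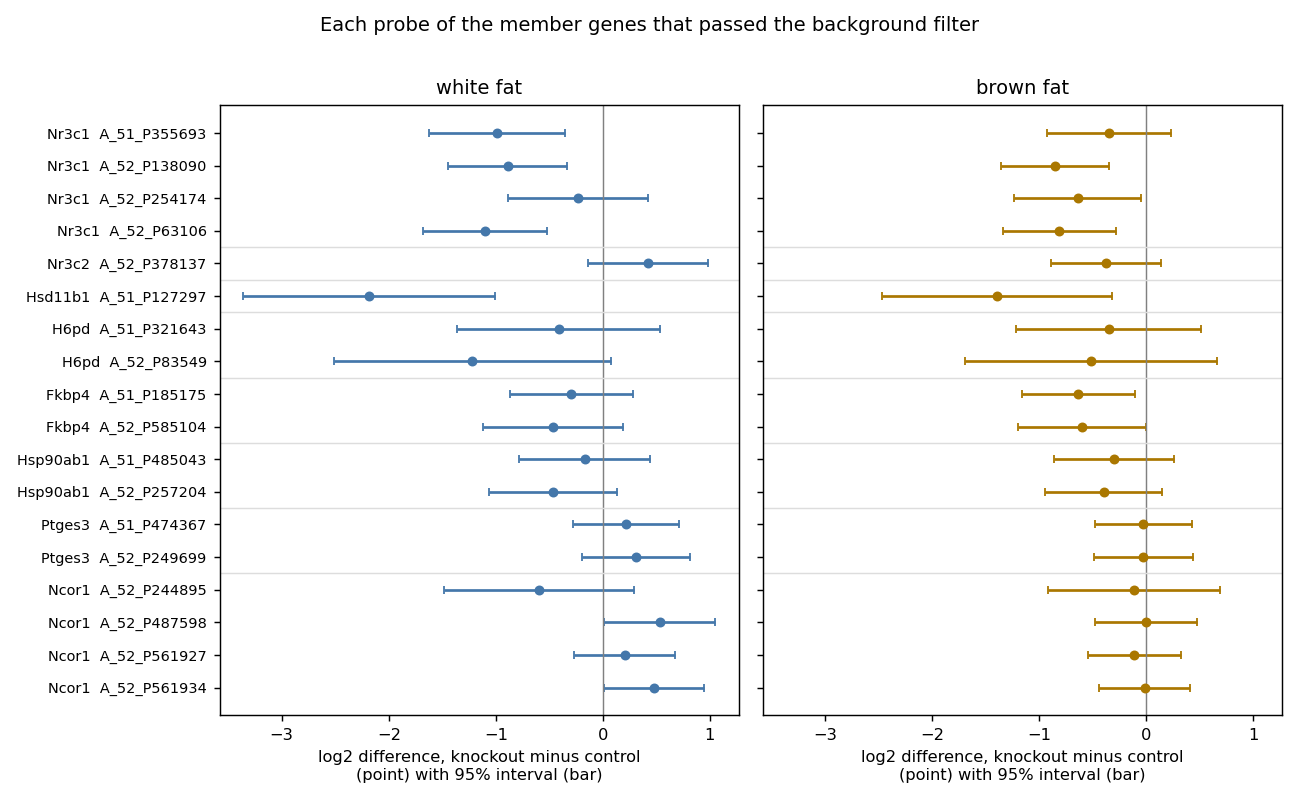
Knockout minus control difference (log2, with 95% interval) of each of the 18 kept probes of the member genes, in white and in brown fat. The points of the 4 probes of Nr3c1 lie below 0 in both panels, whereas those of Ncor1 fall on both sides of 0 in white fat. For Nr3c1, the intervals of A_52_P254174 in white fat and of A_51_P355693 in brown fat cross 0.

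The knockout differences of the tissues were compared by their own test, the brown minus the white difference. For Nr3c1 it was 0.038 ± 0.31 (SE; 95% interval -0.69 to 0.77), an interval that still admits a sizeable gap between tissues. For Hsd11b1 it was 0.79 ± 0.68 (-0.83 to 2.40; limma adjusted p = 1) and for Ncor1 -0.49 ± 0.26 (-1.10 to 0.12; limma adjusted p = 1). Nr3c2 was the only member with an unadjusted limma p under 0.05, at -0.80 ± 0.32 (-1.55 to -0.055; unadjusted p = 0.0387, adjusted p = 1), where 2.6% of all genes had one and 0% passed after adjustment. Without brown control arrays 2 and 3 its unadjusted limma p was 0.0559. The remaining members lay between -0.24 and 0.064. None of these differences between tissues was established.

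Between tissues of the same genotype, 0 of 8 members had a limma adjusted p under 0.05, where 5.09% of all genes did in controls and 1.51% in knockouts. At an unadjusted limma p under 0.05 there were 0 members in controls and 1 in knockouts, beside 22.8% and 15.3% of all genes. No slide held both tissues of a genotype, so these differences also run between slides. The brown samples carried muscle transcripts as well. In this fit, slide and muscle content cannot be told apart from fat type. In controls, H6pd was lower in brown than in white fat in every array, at -0.85 ± 0.37 (SE; -1.72 to 0.016; limma adjusted p = 0.226). Fkbp4 was higher without overlap, at 0.51 ± 0.25 (-0.080 to 1.10; limma adjusted p = 0.280), and Hsp90ab1 at 0.23 ± 0.23. Lower without overlap were 26.2% and higher 22.1% of all genes. Hsd11b1 differed by -0.015 ± 0.46 and Nr3c1 by 0.17 ± 0.21. In knockouts, Ncor1 was the only member without overlap, at -0.53 ± 0.19 (limma unadjusted p = 0.0273, adjusted p = 0.266), where 13.5% of all genes were lower and 13% higher without overlap. For H6pd the value was -0.79 ± 0.40 (limma adjusted p = 0.408). It became -1.39 with an adjusted limma p of 0.0495 without white knockout arrays 2, 3 and 4, and -0.19 without white knockout array 1. In both of these fits 1 sample stands for the white knockouts and is assumed to vary like the other groups.

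Other genes of the pathway were taken from 4 lists. For receptor chaperones, 18 of 18 listed genes were tested, with 12 lower and 6 higher means in white knockouts (median -0.11) and 15 lower and 3 higher in brown knockouts (median -0.17). None had a limma adjusted p under 0.05. The white median was 0.11, with the sign turned, without white knockout array 1. Without brown knockout arrays 2, 3 and 4 the brown count was 11 lower and 7 higher, with a median of -0.027. Bag1, a nucleotide exchange factor of HSP70, gave 3.78 and 3.50 in white controls and 3.14 and 2.15 in white knockouts, at -0.99 ± 0.34 (SE; limma adjusted p = 0.458). Fkbp1a, encoding FKBP12, was at -0.99 ± 0.36 there (limma adjusted p = 0.467). In brown fat Bag1 was at -0.62 ± 0.31 (SE).

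Fkbp5, which encodes FKBP51 and is a well-known glucocorticoid-induced gene, varied most of the chaperone list. It gave -1.84 and 0.21 in white controls, -0.38 and 2.23 in white knockouts, -1.02, -1.81 and -1.08 in brown controls and -0.38 and 1.36 in brown knockouts. The arrays overlapped in white fat and did not in brown fat, where knockouts were the higher. Its white difference was 1.74 ± 1.04 (SE) and its brown difference 1.80 ± 0.95, with limma adjusted p of 0.561 and 0.619.

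For receptor transport and co-activators, 17 of 17 genes were tested, with 6 lower and 11 higher means in white (median 0.18) and 8 lower and 9 higher in brown fat (median 0.0070), and 0 passed the adjusted test. Without white knockout arrays 2, 3 and 4 the white median was 0.048. In white fat Smarca4, the SWI/SNF ATPase, was at 0.67 ± 0.34 (SE) and the Mediator subunit Med1 at 0.55 ± 0.30. Smarca4 gave 4.18 and 4.11 in white controls, 4.31 in white knockout array 1 and 5.32 in white knockout arrays 2, 3 and 4. Med1 gave 0.32 and 0.41 in white controls, and 0.48 and 1.34 in these knockout samples. In brown fat Arid1a, another SWI/SNF subunit, was at 0.80 ± 0.25 (limma unadjusted p = 0.0151). Ncoa2, a p160 co-activator, was at 0.42 ± 0.17 (limma unadjusted p = 0.0479). These were the 2 genes of this list below 0.05 before adjustment, beside 7.04% of all genes. For co-repressors, 12 of 15 genes were tested, with 4 lower and 8 higher in white (median 0.22) and 5 lower and 7 higher in brown fat (median 0.062), and 0 passed. The white median was 0.11 without white knockout arrays 2, 3 and 4. Sin3a, a scaffold of deacetylase complexes, was at 0.59 ± 0.23 in white fat, and the deacetylase Sirt1 at 0.73 ± 0.32. Sirt1 gave 0.37 and 0.64 in white controls, 0.83 in white knockout array 1 and 1.64 in white knockout arrays 2, 3 and 4. In brown fat the repressor Hic1 was at -0.83 ± 0.22 (limma unadjusted p = 0.00682). Nr0b2, the orphan receptor SHP, was at -1.11 ± 0.32 there, but only 2 of 4 brown knockout arrays were well above background. It passed the filter only through the brown controls (4 of 4 arrays), where it was highest. Its lower knockout value is thus favoured by the filter. Hic1 and Nr0b2 were the 2 genes of this list below 0.05 in brown fat before limma adjustment, beside 7.04% of all genes.

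The list of steroid and NADPH metabolism holds the enzymes nearest to Hsd11b1 and H6pd, and 13 of its 22 genes were tested. In white knockouts 10 had lower and 3 higher means (median -0.62), with 4 lower at an unadjusted limma p under 0.05, beside 9.96% of all genes in either direction, and 0 after adjustment. In brown knockouts 8 were lower and 5 higher (median -0.16), with 1 at an unadjusted limma p under 0.05, beside 7.04% of all genes, and 0 after adjustment. Akr1b7 passed the background filter only through the white knockouts and Cyp21a1 only through the brown knockouts. Each counts as higher in that group, which the filter favours. Slc37a4, the transporter that brings glucose 6-phosphate to H6PD in the endoplasmic reticulum, gave 3.13 and 2.69 in white controls and 2.08 and 2.07 in white knockouts. In brown fat it gave 3.80, 4.11 and 3.54 in controls and 3.06 and 3.04 in knockouts. Its groups did not overlap in either tissue, at -0.83 ± 0.26 (SE; limma unadjusted p = 0.0154) and -0.77 ± 0.24 (limma unadjusted p = 0.0141), with adjusted p as for the rest of the list above 0.05. G6pdx, the cytosolic glucose-6-phosphate dehydrogenase, gave 5.91 and 5.50 in white controls and 4.29 and 3.75 in white knockouts, at -1.68 ± 0.40 (limma unadjusted p = 0.00378, adjusted p = 0.394). Pgd, the next NADPH-making enzyme of the cytosolic pentose phosphate pathway, had a difference of -1.63 ± 0.56 in white knockouts and of -1.20 ± 0.51 in brown knockouts. Its brown samples overlapped, at 5.09, 4.57 and 5.75 in controls and 3.19 and 4.69 in knockouts.

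Without white knockout array 1, 7 genes of these lists passed in white fat (Bag1, Fkbp1a, Med1, Smarca4, Tbl1xr1, Srd5a1 and G6pdx), in a fit where 1707 of all genes did and where 1 sample stands for the knockout. Between tissues, Star, the steroidogenic cholesterol carrier, was lower in brown than in white controls, at -1.82 ± 0.34 (SE; limma adjusted p = 0.0315), and lost that call without each of the 5 control samples, white or brown, in turn, with adjusted p of 0.0691 to 0.234, with the slide as a block (-1.33, adjusted p = 0.126) and with normexp background correction (-0.39, adjusted p = 0.444). Akr1c18, a 20α-hydroxysteroid dehydrogenase, was higher in brown than in white knockouts, at 4.23 ± 0.67 (limma adjusted p = 0.0327), although only 3 of 4 white knockout arrays were well above background. It lost the call without white knockout array 1 (adjusted p = 0.0509), without each of the control samples in turn and with normexp, where the difference was 2.43 (adjusted p = 0.107).

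Cell type markers moved between the same groups. The summed level of 10 adipocyte markers (in units of the 75th percentile) was 1838 to 2097 in white controls and 1036 to 1910 in white knockouts, and 1378 to 1782 and 1171 to 1465 in brown fat, with all 10 genes lower in the mean in both tissues (median -0.84 and -0.30). The 14 lymphocyte markers summed to 10.6 to 49.4 in white controls against 28.9 to 239 in knockouts, and to 2.12 to 37.8 against 41.0 to 131 in brown fat, with 13 and 12 of 14 higher in the mean. Of the 10 progenitor and fibroblast markers 9 were lower in white and 8 in brown knockouts (median -0.82 and -0.69), and of the 7 endothelial markers 6 and 5 were lower (median -0.70 and -0.41). Of the 9 mesothelial markers 9 and 7 were lower, and of the 10 muscle markers 2 and 10. In brown fat only 7 of the 9 mesothelial markers in controls and 6 in knockouts were well above background on any array. Macrophage markers summed to 46.3 to 50.2 and 29.0 to 58.1 in white fat, and all 8 proliferation markers were higher in both tissues. No marker gene passed the adjusted limma test between knockout and control.

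The white knockout samples were unlike each other in these markers. In arrays 2, 3 and 4 the list medians lay 3.13 above the control mean for lymphocytes, -1.69 from it for adipocytes and -3.58 for mesothelium, while in array 1 they lay at -0.59, -0.093 and 0.16. The control samples themselves spanned -1.07 to 1.07, -0.11 to 0.11 and -0.48 to 0.48 on these lists. Array 1 lay outside the control samples for macrophages (-0.79, controls -0.077 to 0.077), progenitors and fibroblasts (-0.36, controls -0.0043 to 0.0043), endothelium (-0.31, controls -0.015 to 0.015) and brown adipocytes (-0.43, controls -0.12 to 0.12), and slightly for muscle (-0.62) and proliferation (-0.61). In arrays 2, 3 and 4 these lists lay at 0.49, -1.41, -0.84, -0.95, 1.68 and 2.93. Nr3c1 and Hsd11b1 were lower than in controls in both samples. Without arrays 2, 3 and 4 the white differences were -0.77 and -2.42, and without array 1 they were -1.01 and -1.94. At its brighter probe, H6pd was at the control level in array 1 and low in arrays 2, 3 and 4. At its second probe it lay below the control arrays in both samples. In brown fat the lymphocyte list lay 2.74 above the control mean in knockout array 1 and 4.63 above it in knockout arrays 2, 3 and 4, and the adipocyte list at -0.14 and -0.48. The part of these markers in the results was not tested.

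**Figure D4:**
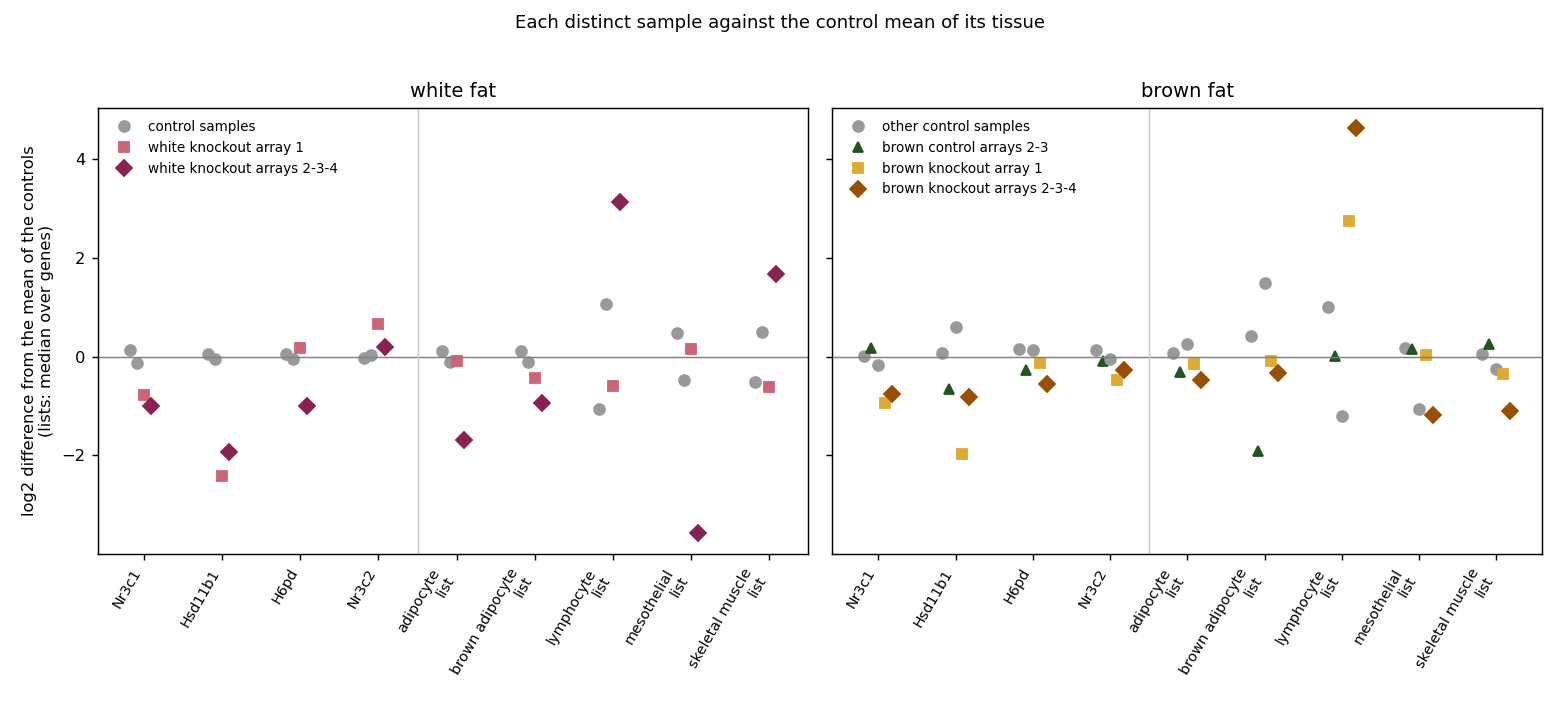
Each distinct sample minus the control mean of its tissue (log2) for Nr3c1, Hsd11b1, H6pd and Nr3c2 and for the medians of 5 marker lists. In white fat both knockout samples lie below 0 for Nr3c1 and Hsd11b1, while the marker lists lie farther from 0 in arrays 2, 3 and 4 than in array 1.

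The genes whose pattern was most like that of a member were taken from the highest Pearson correlations over the 9 samples, among 14827 genes. This is a description, since the samples fall into groups and share normalization. For Nr3c1 they included Rex1bd (0.960), Klf14 (0.956), Top1mt (0.955) and Atg4c (0.951). For Hsd11b1 they were Rims4 (0.953), Thrsp (0.947), Gbe1 (0.938), Mrps22 (0.935) and Klf14 (0.933), so that Klf14 stood in both. For the dim Nr3c2 they included Olfr418 (0.926), P2rx2 (0.910), Faim2 (0.908) and Asphd1 (0.894).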

How the data were processed

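RNA of white and brown adipose tissue from control and knockout mice was measured on 16 arrays. Per the file headers, images were read with Agilent Feature Extraction 12.0.0.7, and the deposited files give each spot's background-subtracted intensity on a linear scale, unscaled between arrays. The authors' value table equals the mean of these intensities (100% of values within 0.1%). Spots flagged as outliers were left out, spots of a probe averaged, and log2 intensity taken relative to each array's 75th percentile. Each array had 43379 spots that were not controls, 67.3% to 77.0% of them well above background and 0 saturated. The number of distinct samples, 9 in all, limits the precision. RefSeq accessions named 28223 of 41174 probes (19096 symbols, GRCm38.p6 table), and 12951 stayed unnamed. The design names another build, so probes have no coordinates here.

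Arrays of a group were merged where the median absolute deviation of their differences, divided by the scanner's error over 10067 bright probes, was below 1 (merged pairs 0.373 to 0.656, others 1.10 to 4.28). Repeat hybridisations, pooled RNA and very similar animals cannot be told apart by this. A gene's brightest kept probe stood for the gene. limma 3.58.1 in R 4.3.3 was fitted to the 9 samples with 4 group means and 5 residual degrees of freedom, and p-values were adjusted by Benjamini-Hochberg over all genes (threshold 0.05). On simulated data of the white comparison (15469 genes) it recovered 6%, 56%, 66% and 82% of genes changed by 1, 2, 3 and 4 log2 units, so smaller changes would mostly be missed. Genes named are the members, up to 4 per pathway list and comparison past the threshold or else the 2 with the smallest p, and the 5 most like in pattern, of which some are not reported here; genes singled out beyond that were chosen after their values were seen. The members, lists and tests were chosen with earlier results of these data known. Alternatives changed the sample unit, background correction (normexp, offset 50, on the median signal, because the mean signal named in the plan was not used here), normalization, value source, filter, probe rule, slide and replicate blocks, and left out each sample.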

Additional observations from a re-analysis of the deposited data

How the results depend on the processing

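The count of members with a limma adjusted p under 0.05 was 0 in all 5 comparisons. With the 16 arrays as separate samples it was 5 in white knockout (Nr3c1, Hsd11b1, H6pd, Fkbp4 and Ncor1), 4 in brown knockout (Nr3c1, Hsd11b1, Fkbp4 and Hsp90ab1), 1 for the difference of these (Ncor1), 2 between tissues of controls and 2 of knockouts, among 6929, 4736, 640, 6083 and 3988 of all genes; repeat arrays then count as independent. With 16 arrays and the slide as a block it was 2 in white knockout and 0 elsewhere. With 16 arrays and the replicate number as a block it was 4 in white knockout, 4 in brown knockout, 2 between tissues of controls and 3 of knockouts. As a random block on the averaged samples (consensus correlation 0.324) the number gave 0 throughout. Same-numbered arrays deviated together between white and brown knockouts (r 0.645 to 0.694), but not between white and brown controls (-0.438 to 0.219). Between white control and knockout r was 0.577, 0.574 and 0.547 for numbers 1, 2 and 3 but -0.576 for number 4. In brown fat r between control and knockout was -0.631 to -0.0917. The numbers were therefore not taken to pair control with knockout. Between the tissues of knockouts they give only 2 distinct pairs, and whether these are pairs is not settled.

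Leaving out each sample gave 0 to 1 members between tissues of knockouts (1 without white knockout arrays 2, 3 and 4, where a single sample stands for that group) and 0 in the other comparisons. Counting all white control arrays as 1 sample, chosen after seeing the data, gave 0. Nr3c1, Hsd11b1 and Fkbp4 kept their direction in both tissues under every alternative run. With the authors' values unscaled, which moves the median gene by -0.23 in white and 0.31 in brown fat, Nr3c1 had -1.09 and -0.42 and Hsd11b1 at -2.38 and -0.97. The following brown knockout differences, none of them called, turned sign. Unscaled, Nr3c2 was at 0.054, H6pd at 0.081, Hsp90ab1 at 0.13, Ptges3 at 0.40 and Ncor1 at 0.42. Ptges3 was at 0.10 and Ncor1 at 0.18 with normexp, and at 0.11 and 0.15 with quantile normalization. Ncor1 was at 0.048 with the slide as a block, and between -0.075 and 0.047 without single samples, and Ptges3 between -0.17 and 0.11. The white difference of H6pd lay between -1.01 and 0.18 without single samples. The small difference of Nr3c1 between tissues fell between -0.10 and -0.052 under 4 alternatives. The cause was not tested. White control arrays 1 and 4, counted as 1 sample, differ by more for Nr3c2 than its groups do.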
